A study of Mus musculus with 7 samples.

Results

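The constitutive proteasome genes were followed in tumour cells of the mouse colon with and without Mex3a, which encodes an RNA-binding protein of intestinal stem and progenitor cells. The genes were chosen by symbol: Psma, Psmb, Psmc, Psmd, Psme, Psmf or Psmg followed by a number, on probe sets that the platform annotation pairs with 1 gene, leaving out the 3 inducible subunits Psmb8, Psmb9 and Psmb10. Psmc6, Psmd10 and Psme4 had no such probe set and are not covered. The rule gave 44 genes of 17097 on the arrays, read by 68 probe sets. Of them, 2 carry the name of a proteasome gene without being part of the particle (Psmc3ip and Psme3ip1, which encode binding partners) and were kept out of the counts below.

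The study comprised 7 Affymetrix arrays, 4 WT and 3 KO for Mex3a. All animals carried a Tomato reporter at 1 Mex3a allele, Villin CreERT2 (a tamoxifen-inducible Cre driven by a promoter of the gut epithelium) and 1 floxed Apc allele. Beside the reporter, the other Mex3a allele was floxed or wild type; the labels call the arrays KO and WT, and the floxed allele was taken here as the one lost in KO. Both groups received 4 doses of tamoxifen and then 2% dextran sulfate sodium, a colitis-inducing polymer, for 5 days. Colonic adenomas were taken 2 months after the polymer ended per the design text, while the sample protocols count those months from induction. Ages are not given. Epcam-positive, Tomato-positive cells were sorted, so both groups hold only cells with an active Mex3a promoter. RNA came from 2000 cells amplified over 24 cycles, and the labels do not tie an array to an animal of its own, so p-values measure spread between samples that may be technical only.

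The proteasome is the protease that degrades ubiquitin-tagged proteins. Its barrel-shaped core is built of rings of alpha subunits (Psma), which form the gate, around rings of beta subunits (Psmb), some of which carry the catalytic sites. A regulatory particle caps the core. Its base holds a ring of ATPases (Psmc) that unfold the substrate, and its lid, built from Psmd proteins, removes ubiquitin. Activators (Psme) can cap the core in place of the regulatory particle, Psmf1 is an inhibitor of the core, and the Psmg proteins are chaperones of core assembly. When the proteasome is impaired, the transcription factor Nfe2l1 raises the genes of the subunits together through antioxidant response elements. In the renewing gut epithelium the proteasome also degrades beta-catenin, the effector of Wnt signalling.

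Upstream sequence is shown for the lid genes Psmd8 and Psmd6, because these were the members with the largest differences between genotypes, in opposite directions. Capitals mark the GC box GGGCGG on either strand, the only one of the promoter motifs searched (GC box, CCAAT box and TATA box) present in these 150 bases, which end just before the annotated start site. Sequences are from RefSeq, build GRCm38.p6, and both genes lie on the minus strand, at chr7:29180674-29180823 for Psmd8 and chr14:14120946-14121095 for Psmd6.
Psmd8: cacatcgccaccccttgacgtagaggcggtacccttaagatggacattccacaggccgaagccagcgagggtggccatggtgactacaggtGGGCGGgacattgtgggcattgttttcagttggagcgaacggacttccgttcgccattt
Psmd6: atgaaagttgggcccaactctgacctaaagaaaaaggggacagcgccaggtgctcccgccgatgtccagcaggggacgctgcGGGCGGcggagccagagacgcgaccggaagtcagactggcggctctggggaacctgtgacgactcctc

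The members were matched by symbol to promoter windows of equal length around the start site, and 34 of 42 had one or more. The GC box GGGCGG, searched on both strands, was in 20 of their 37 windows (54.1%), against 35.7% of 32851 windows of all genes. The CCAAT box, on both strands as all motifs here, was in 12 of the 37 windows (32.4%) against 37.4%. The TATA box, TATAAA, was in 3 (8.11%) against 13.6%. The core of the antioxidant response element, TGACNNNGC on either strand, was in 4 (10.8%) against 12.4%. Its matches are shown because Nfe2l1 acts through such elements, with the matched letters in capitals. They belong to the catalytic core subunits Psmb5 (chr14:54618024-54618052, minus strand) and Psmb6 (chr11:70525338-70525366, plus strand), the base assembly chaperone Psmd9 (chr5:123228149-123228177, plus strand) and the lid subunit Psmd12 (chr11:107479278-107479299, plus strand, on the reverse complement). A match is a description of the letters only.
Psmb5: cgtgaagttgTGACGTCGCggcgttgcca
Psmb6: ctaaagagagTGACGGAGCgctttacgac
Psmd9: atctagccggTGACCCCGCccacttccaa
Psmd12: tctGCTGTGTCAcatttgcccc

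The targeted gene Mex3a read 7.41, 7.38, 7.50 and 7.01 in WT replicates 1 to 4 and 6.18, 6.29 and 6.07 in KO replicates 1 to 3 on the log2 scale, without overlap. Whether its probe set lies in the floxed part is not stated by the labels. The epithelial sorting marker Epcam stood between 11.87 and 11.99 in every array, while the mean of 9 epithelial markers, relative to all arrays, ran from -0.22 in KO replicate 1 to 0.30 in KO replicate 2, with Krt20 between 5.98 and 8.36. Of 20 leukocyte markers, 12 were tested, with a median difference of 0.003. Their mean log2 level was 6.77 to 6.91 in WT against 6.77 to 6.99 in KO. Lyz2 was higher in KO by 0.39 without overlap, but read 11.63 to 12.53. The other leukocyte markers tested reached at most 7.66 (Cd68, WT replicate 1), and which cells gave the Lyz2 signal was not tested. Of 5 endothelial markers, 4 were tested, 2 with a positive and 2 with a negative difference, and the median was 0.0007. Cdh5 was lower in KO without overlap, by a difference of -0.41 (SE 0.09), while Pecam1, Kdr and Vwf stood at 0.04, 0.03 and -0.02. Among all genes tested, 3.23% were lower in KO without overlap and 2.68% higher. Of 7 fibroblast markers, 4 were tested, 3 with a positive and 1 with a negative difference, and the median was 0.10. Thy1 differed by 0.17 (SE 0.07), at an unadjusted p under 0.05 (limma) and with overlap, Col1a1 by -0.19 (SE 0.26) and Dcn by 0.02 (SE 0.14). Col3a1 was high in 1 array of each group, WT replicate 3 (8.26) and KO replicate 2 (8.37), against 5.48 to 6.31 in the other arrays. None of these passed over all genes, and their part in the results below was not tested. Over all 12822 genes tested, limma called 0 genes at an adjusted p under 0.05 and 1462 (11.4%) at an unadjusted p under 0.05, with 916 (7.14%) higher in KO and 546 (4.26%) lower. Scan batch 1 held 2 WT arrays and 1 KO array, and scan batch 2 held 2 of each.

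As a group, the proteasome genes stood at nearly the same level in KO and WT cells. Of 42 genes of the particle, its activators, inhibitor and assembly chaperones, 40 passed the level filter; 21 had a positive and 19 a negative difference, with a median log2 difference of 0.01, against -0.02 over all genes tested, where 43.9% were positive. The differences ran from -0.25 (Psmd8) to 0.30 (Psmd6). At an unadjusted p under 0.05 (limma) there was 1 member higher and 1 lower in KO, each 2.50% of the 40, below the background shares of 7.14% and 4.26%. No member passed at an adjusted p under 0.05 (limma; lowest adjusted p = 0.388). For 1 member, lower in KO, the groups did not overlap, where 3.23% of all genes did so in that direction, 2.68% did so higher in KO and 5.91% in either direction. In a sorted bulk sample, fewer cells of a type and less RNA per cell cannot be told apart.

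A p above the threshold does not show equal levels, but the intervals bound what could have been missed between these samples. They rest on a spread that may be technical only, and so may not bound differences between animals. For 19 of the 40 members the 95% interval of the difference, taken gene by gene, lay within 0.25 on the log2 scale in both directions, that is within 1.19-fold. Among them were 11 of the 14 core subunits tested. The intervals of the other members reached past that bound. Of all 12822 genes tested, 3490 had an interval within it. The catalytic-ring member Psmb4 had the narrowest error, with a difference of -0.004 (SE 0.04) and an interval of -0.10 to 0.09. Within WT, the median SD of the members was 0.10, against 0.14 over all genes tested. These comparisons with all genes were not matched for level. The members counted read 7.79 or more in every array, while the medians of the arrays over all probe sets were 5.955 to 5.995.

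**Figure D1:**
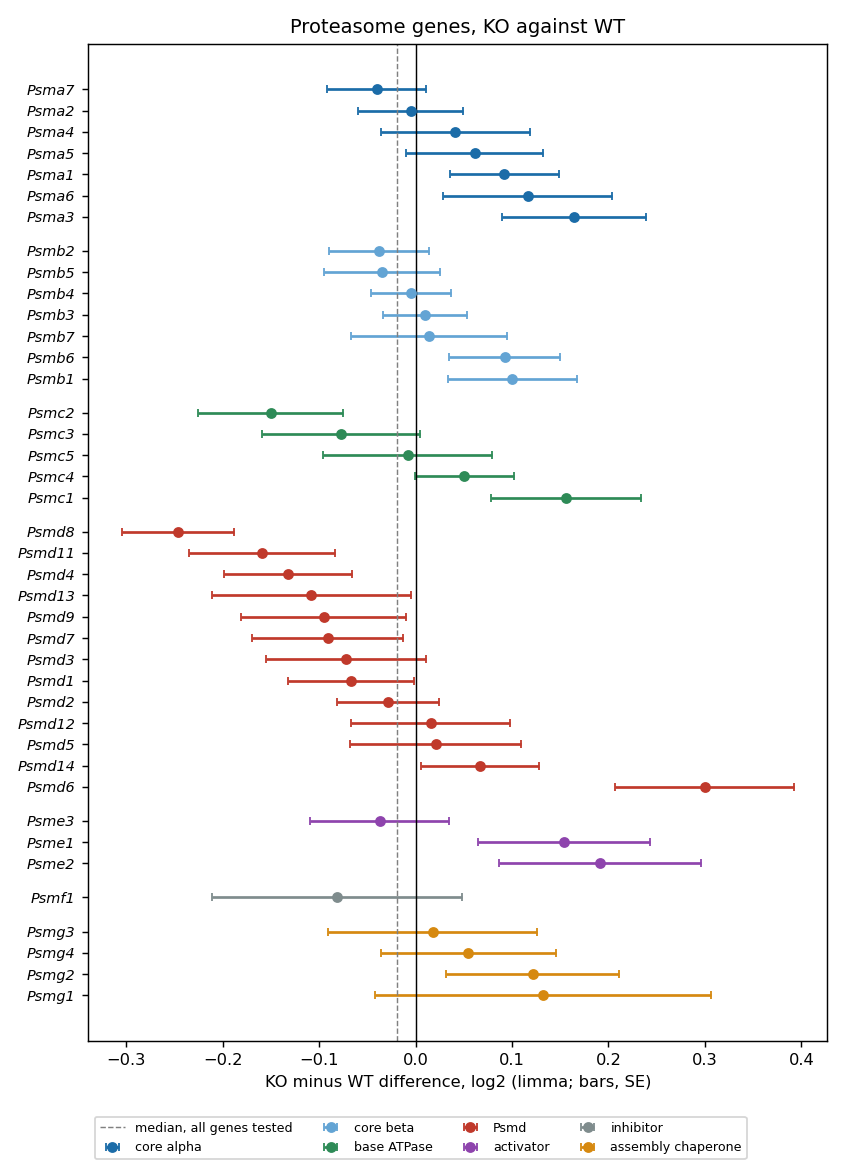
Log2 difference KO minus WT of each proteasome gene tested (points; bars, SE of the limma fit with scan batch; 4 WT and 3 KO arrays), ordered by class, with the median over all genes tested as a dashed line. Psmd8 (-0.25) and Psmd6 (0.30), both of the Psmd class, lie at the ends, and the beta subunits of the core lie between -0.04 and 0.10.

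The Psmd genes held both ends of the range of differences. Of 13 tested, 9 were negative, with a class median of -0.07, against 56.1% negative and a median of -0.02 over all genes tested. The symbol covers several roles. The lid proper (Psmd3, Psmd6, Psmd7, Psmd8, Psmd11, Psmd12, Psmd13 and Psmd14) had 5 of 8 negative with a median of -0.08, the ubiquitin receptors and scaffolds of the base (Psmd1, Psmd2 and Psmd4) had 3 of 3 negative with a median of -0.07, and the base assembly chaperones Psmd5 and Psmd9 stood at 0.02 and -0.10.

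Psmd8, a lid subunit (Rpn12 in yeast) that joins late in lid assembly, read 10.98, 10.87, 11.05 and 10.98 in WT replicates 1 to 4 and 10.63, 10.84 and 10.77 in KO replicates 1 to 3. Every KO array lay below every WT array, with WT replicate 2 and KO replicate 2 next to each other and KO replicate 1 lowest. Group means were 10.97 ± 0.07 (SD, n = 4) in WT against 10.75 ± 0.11 (SD, n = 3) in KO. The difference was -0.25 (SE 0.06; 95% interval -0.38 to -0.11), or 1.19-fold lower in KO. It did not pass over all genes (limma, adjusted p = 0.388, against a range of 0.0312 to 0.991 over 21 alternatives), and the two-sided exact permutation p over the 35 splits of the arrays was 0.0571, where the smallest possible is 0.0286. It was -0.30 within scan batch 1, -0.21 within scan batch 2 and -0.24 with the Gapdh control measure (see its values by array further on) added to the fit.

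Psmd6, the lid subunit Rpn7, went the other way. It read 9.50, 9.75, 9.21 and 9.25 in WT against 9.80, 9.62 and 9.61 in KO. The WT arrays were spread over more than the gap between the groups, with WT replicate 2 among the KO arrays and WT replicates 3 and 4, both of scan batch 2, lowest. The level was 9.43 ± 0.25 (SD, n = 4) in WT against 9.68 ± 0.10 (SD, n = 3) in KO, and KO minus WT came to 0.30 (SE 0.09; 95% interval 0.09 to 0.51) or 1.23-fold. The limma adjusted p was 0.405 (range 0.0274 to 0.991 over the alternatives) and the exact permutation p, which takes no account of scan batch, 0.2. The difference did not pass over all genes, although within each scan batch the KO arrays lay above the WT arrays. It was 0.17 within scan batch 1, 0.38 within scan batch 2 and 0.18 with the Gapdh measure as a covariate.

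Psmd11, the lid subunit Rpn6 that braces the regulatory particle against the core, read 10.74, 10.63, 10.81 and 10.67 in WT against 10.63, 10.59 and 10.44 in KO. The groups met at WT replicate 2 and KO replicate 1. Its difference was -0.16 (SE 0.08; limma, adjusted p = 0.461), with -0.05 within scan batch 1 and -0.23 within scan batch 2. Psmd4, the ubiquitin receptor Rpn10, is described although it lay outside the naming rule, and was chosen after its values were seen. It read 10.36, 10.21, 10.43 and 10.39 in WT against 10.19, 10.27 and 10.23 in KO, so that only WT replicate 2 lay among the KO arrays. Its difference was -0.13 (SE 0.07; limma, adjusted p = 0.471).

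The remaining Psmd genes differed by -0.11 (Psmd13) to 0.07 (Psmd14). Psmd14, the deubiquitinase of the lid, was flat across WT, at 10.99, 10.96, 10.93 and 10.99, and split in KO, with 10.92 in replicate 1 and 11.12 in replicates 2 and 3. Psmd2, the scaffold on which ubiquitin shuttles dock, was nearly constant, at 10.71 ± 0.02 (SD, n = 4) in WT against 10.68 ± 0.01 (SD, n = 3) in KO. Its difference was -0.03 (95% interval -0.15 to 0.09).

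**Figure D2:**
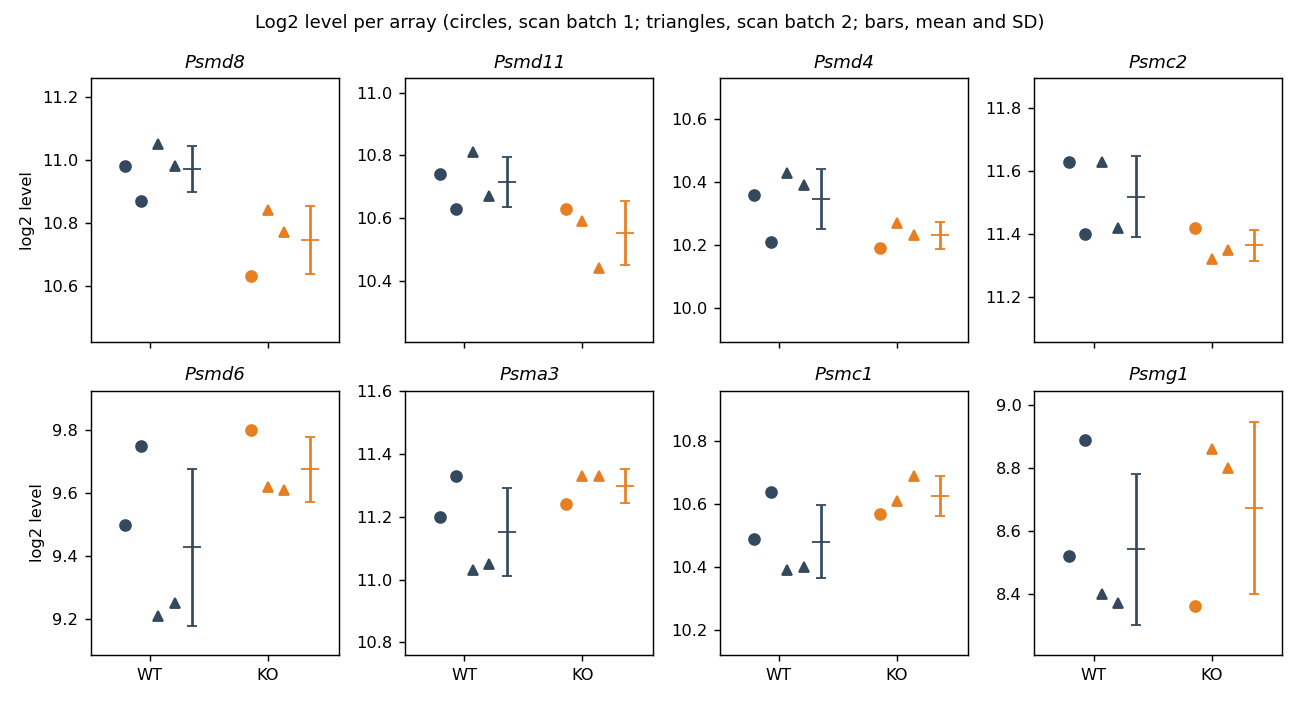
Log2 level per array of 8 proteasome genes in WT and KO (points, 1 per array; circles, scan batch 1; triangles, scan batch 2; bars, mean and SD of 4 WT and 3 KO arrays); every panel spans the same log2 range. Only Psmd8 shows no overlap between the groups, and in Psmd6, Psma3, Psmc1 and Psmg1 WT replicate 2, the higher circle in WT, lies in or above the range of the KO arrays.

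Of the 7 core alpha subunits tested, 5 had a positive difference, where 43.9% of all genes did, and the median was 0.06. None passed the test. Psma3 read 11.20, 11.33, 11.03 and 11.05 in WT against 11.24, 11.33 and 11.33 in KO, with a difference of 0.16 (SE 0.07; 95% interval -0.01 to 0.34; limma, adjusted p = 0.445). WT replicate 2 matched the upper KO arrays, and the difference was -0.03 within scan batch 1 and 0.29 within scan batch 2. Psma1 read 10.77, 10.78, 10.70 and 10.62 in WT against 10.81, 10.81 and 10.77 in KO. Its difference was 0.09 (SE 0.06; limma, adjusted p = 0.540). Psma6 read 10.75, 10.97, 10.69 and 10.65 in WT against 10.78, 10.90 and 10.93 in KO, where the highest of all arrays was a WT array, and differed by 0.12 (SE 0.09; limma, adjusted p = 0.599). The other alpha subunits, Psma2, Psma4, Psma5 and Psma7, lay between -0.04 and 0.06.

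Of the 7 beta subunits tested, 4 were positive, and the median difference was 0.01. The catalytic subunits are Psmb5 (chymotrypsin-like), Psmb6 (caspase-like) and Psmb7 (trypsin-like), the ones that Psmb8, Psmb9 and Psmb10 replace in the immunoproteasome. Psmb5 read 11.06, 10.92, 11.12 and 11.01 in WT against 11.00, 11.01 and 10.98 in KO, and differed by -0.03 (95% interval -0.17 to 0.10). Psmb6 read 11.14, 11.14, 11.02 and 11.08 in WT against 11.14, 11.15 and 11.26 in KO, with a difference of 0.09 (SE 0.06; limma, adjusted p = 0.545), and KO replicate 3 alone stood above the WT range by more than 0.01. Psmb7 differed by 0.01 (95% interval -0.17 to 0.20).

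Of the structural beta subunits, Psmb1 read 10.18, 10.30, 10.06 and 10.02 in WT against 10.28, 10.18 and 10.18 in KO, a difference of 0.10 (SE 0.07; limma, adjusted p = 0.561). Psmb2 read 11.75, 11.68, 11.79 and 11.65 in WT against 11.74, 11.61 and 11.67 in KO, a difference of -0.04 (SE 0.05; limma, adjusted p = 0.769). The ranges of the groups overlapped for both genes, although KO replicate 2 was the lowest of the 7 arrays for Psmb2. Psmb3 and Psmb4 differed by 0.01 or less in either direction.

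The base ATPases were split. Of 5 tested, 2 were positive and 3 negative, with a median of -0.01, and Psmc6 had no probe set under the rule. Psmc1 (Rpt2), whose tail opens the gate of the core, read 10.49, 10.64, 10.39 and 10.40 in WT against 10.57, 10.61 and 10.69 in KO, a difference of 0.16 (SE 0.08; 95% interval -0.02 to 0.34; limma, adjusted p = 0.470). Psmc2 (Rpt1) read 11.63, 11.40, 11.63 and 11.42 in WT against 11.42, 11.32 and 11.35 in KO, a difference of -0.15 (SE 0.08; 95% interval -0.32 to 0.02; limma, adjusted p = 0.470). In both genes WT replicate 2 stood with the KO arrays, and for Psmc2 WT replicate 4 and KO replicate 1 both read 11.42. Psmc4 (Rpt3) read 11.29, 11.32, 11.15 and 11.08 in WT against 11.27, 11.22 and 11.23 in KO, inside the WT range, and differed by 0.05 (SE 0.05; limma, adjusted p = 0.692). Psmc3 and Psmc5 differed by -0.08 and -0.01.

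Of the activators, the interferon-inducible pair Psme1 and Psme2, which form a ring on the core that favours release of antigenic peptides, had positive differences, and the nuclear activator Psme3 did not. Psme1 read 10.63, 10.82, 10.47 and 10.47 in WT against 10.73, 10.60 and 10.84 in KO, a difference of 0.15 (SE 0.09; limma, adjusted p = 0.526). Psme2 read 8.86, 8.66, 8.85 and 8.65 in WT against 9.02, 8.78 and 9.02 in KO, a difference of 0.19 (SE 0.10; 95% interval -0.05 to 0.43; limma, adjusted p = 0.499). KO replicates 1 and 3 lay above all WT arrays for Psme2, while KO replicate 2 lay among them. Psme3 read 11.13, 11.07, 11.18 and 10.97 in WT against 10.95, 11.16 and 11.07 in KO, and differed by -0.04 (SE 0.07; limma, adjusted p = 0.845).

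The immunoproteasome subunits, left out of the member list, are set beside the activators because they share interferon control. Psmb8 read 9.58, 8.40, 8.92 and 8.55 in WT against 10.03, 8.36 and 9.63 in KO, with KO replicates 1 and 3 highest, as for Psme2. The same arrays were highest for Psmb10, but for Psmb9 WT replicate 1 (8.31) lay above KO replicate 3 (8.25). In WT, replicate 1 stood well above replicate 3 for Psmb8, whereas the 2 were level for Psme2. Its range over the arrays was wider than that of any constitutive member. The differences of Psmb8, Psmb9 and Psmb10 were 0.57 (SE 0.38), 0.32 (SE 0.23) and 0.16 (SE 0.10), none past the threshold (limma, adjusted p = 0.561, 0.592 and 0.564).

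The assembly chaperones were positive in 4 of 4, at a median of 0.09, and none passed. Psmg1, which acts with Psmg2 as a dimer on the forming alpha ring, read 8.52, 8.89, 8.40 and 8.37 in WT against 8.36, 8.86 and 8.80 in KO. The arrays fell into high and low readings in both groups, and the difference of 0.13 (SE 0.17; limma, adjusted p = 0.761) was -0.34 within scan batch 1 and 0.45 within scan batch 2. Psmg2 read 8.62, 8.48, 8.36 and 8.49 in WT against 8.57, 8.63 and 8.60 in KO, a difference of 0.12 (SE 0.09; limma, adjusted p = 0.594). Psmg3 and Psmg4, the second dimer of the alpha ring, differed by 0.02 and 0.05. The inhibitor Psmf1 read 9.03, 8.70, 9.03 and 8.65 in WT against 8.83, 8.82 and 8.64 in KO, a difference of -0.08 (SE 0.13; limma, adjusted p = 0.808).

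The tissue-restricted core subunits were dim. Psma8, the alpha subunit of the testis proteasome, read between 5.02 and 5.24, and Psmb11, the beta subunit of the thymus proteasome, between 5.00 and 5.27. Both had means below the filter at 5.28 and were not tested. The binding partners Psmc3ip, a recombination factor, and Psme3ip1, which binds Psme3, differed by 0.02 (SE 0.09) and 0.11 (SE 0.08).

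For 15 of the 42 genes more than 1 probe set was present, and in 8 of them the probe sets gave differences of opposite sign. The 3 probe sets of Psmd4 ran the same way, at -0.13, -0.12 and -0.16, as did the 2 of Psmd6, at 0.30 and 0.15, the second with an SE of 0.15. Psmd8 had 1 probe set, so its difference has no second reading on the array. Psmd11 had 5. The brightest and the next, at means of 10.71 and 9.61 in WT, gave -0.16 and -0.14, while the third, at 6.98 in WT, gave 0.36 (SE 0.17) and read 7.15, 7.40, 6.77 and 6.60 in WT against 7.15, 7.30 and 7.45 in KO. For the inhibitor Psmf1, the probe set at 6.09 in WT gave 0.30 (SE 0.15) against -0.08 on the brightest. The annotation used does not say which transcripts the dimmer probe sets read.

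**Figure D3:**
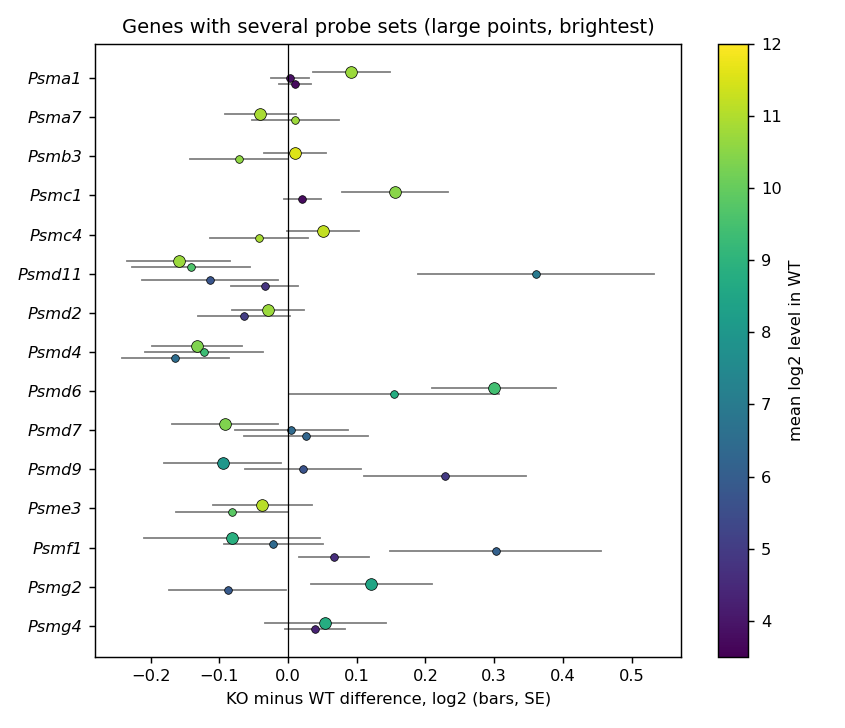
Log2 difference KO minus WT (bars, SE) of each probe set of the 15 proteasome genes read by more than 1, coloured by mean log2 level in WT, with the brightest probe set of each gene as the larger point. The probe sets of Psmd4 and Psmd6 fall on 1 side of 0, whereas a dimmer probe set of Psmd11 (0.36) lies opposite its brightest (-0.16).

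The arrays also differed among themselves within a genotype. WT replicate 4 was the lowest of the 7 arrays for 13 of the 40 members (32.5%) and the highest for 0, against 17.5% and 16.9% of all genes tested. KO replicate 1 was lowest for 11 (27.5%, against 18.5% of all genes). Set against its mean over the 7 arrays, the class mean of the alpha subunits stood at 0.007, 0.058, -0.046 and -0.106 in WT against 0.032, 0.036 and 0.017 in KO, and that of the assembly chaperones 0.016, 0.110, -0.086 and -0.165 in WT and -0.063, 0.092 and 0.097 in KO. The Psmd genes ran differently, with WT replicate 3 highest at 0.061 and KO replicate 1 lowest at -0.067.

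WT replicate 2 and KO replicates 2 and 3, the arrays with the lowest log2 difference between the 3' and 5' control probe sets of Gapdh (a measure of RNA quality), were the 3 highest arrays for Psma3, Psma6, Psmb6, Psmc1 and Psmg1, or 5 of 40 members (12.5%), against 8.67% of all genes. They were the 3 lowest for Psmc2 and Psmd11, 2 of 40 (5.00%), against 5.66%. Array by array that measure read -0.131, -0.209, -0.121 and -0.121 in WT, against -0.154, -0.213 and -0.239 in KO. The same difference for the control probe sets of actin ordered the arrays otherwise. For actin it read -0.485, -0.429, -0.497 and -0.448 in WT, against -0.301, -0.515 and -0.446 in KO. Within scan batch 2 the KO arrays lay below the WT arrays on the Gapdh measure, so there it cannot be told apart from genotype. With the Gapdh measure as a covariate the differences were 0.04 for Psma3, -0.03 for Psma6, 0.04 for Psmb6, 0.04 for Psmc1 and -0.19 for Psmg1. For Psmc2 and Psmd11 they were -0.07 and -0.07. These genes were picked by their order over the same arrays, so the covariate values are a description and not a test, and the part of RNA quality in the differences was not tested.

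**Figure D4:**
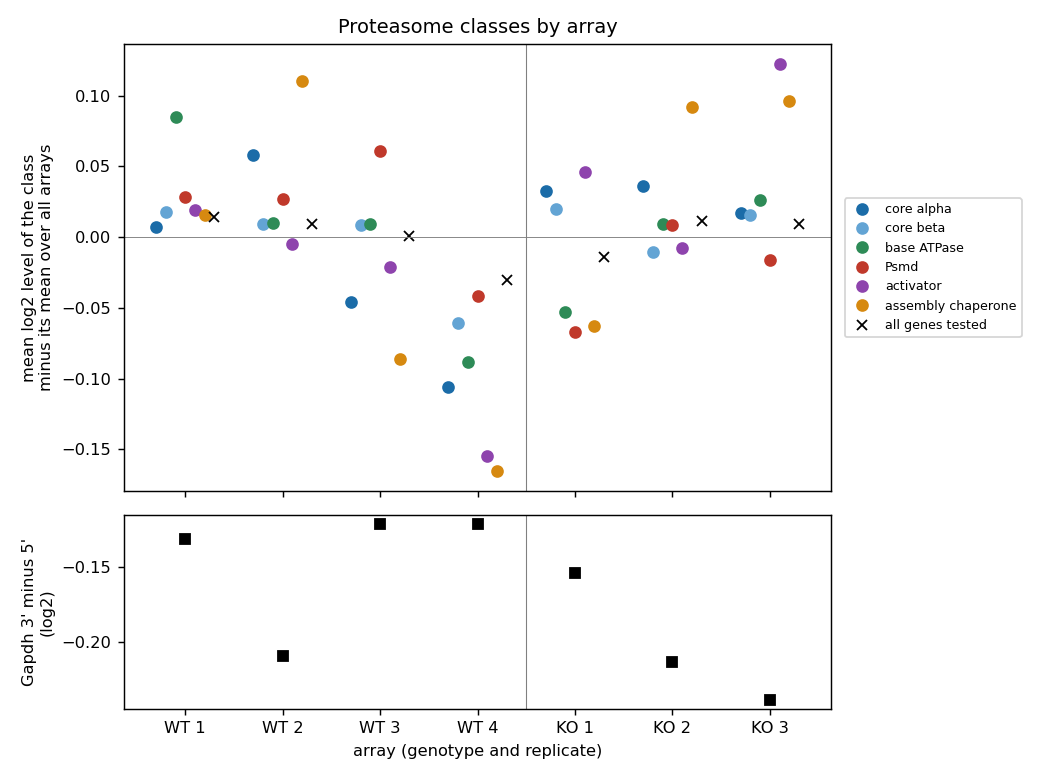
Upper panel, mean log2 level of each proteasome class minus its mean over all arrays (points, 1 per class and array; crosses, all genes tested); lower panel, log2 difference between the 3' and 5' Gapdh control probe sets of each array. WT replicate 4 lies below 0 in every class shown, and the mean of the assembly chaperones is highest in WT replicate 2 and KO replicates 2 and 3, where the Gapdh difference is lowest. Of these chaperones only Psmg1 has those arrays as its 3 highest.

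Within scan batch 2 alone, 10 of 40 members had an unadjusted p under 0.05 in limma, close to the 24.4% of all genes. Higher in KO were Psma3, Psma6, Psmc1, Psmd14, Psmd6, Psme1 and Psmg1, and lower were Psmd4, Psmd8 and Psmd11. With a weight fitted to each array, 5 members (12.5%) passed at an adjusted p under 0.05 in limma, against 10.7% of all genes: Psma3, Psmc1 and Psmd6 were higher, and Psmc2 and Psmd8 lower. In that fit KO replicate 1 had the lowest weight, 0.297.

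Other genes of the pathway were taken from lists. Of 20 assembly factors, associated proteins and ubiquitin shuttles, 16 were tested; 11 were positive and the median was 0.09. At an unadjusted p under 0.05 there were 3 higher in KO and 0 lower, beside 7.14% and 4.26% of all genes tested, and none passed over all genes. Usp14, the deubiquitinase bound to the base, read 6.82, 6.64, 5.89 and 5.94 in WT against 6.89, 6.71 and 6.99 in KO, a difference of 0.63 (SE 0.16; limma, adjusted p = 0.388); WT replicates 3 and 4, both of scan batch 2, were low, and the groups overlapped. Pomp, the chaperone that completes the core, read 10.53, 10.58, 10.39 and 10.45 in WT against 10.60, 10.68 and 10.75 in KO, without overlap. Its difference was 0.19 (SE 0.07; limma, adjusted p = 0.414; exact permutation p = 0.0571). Ipo9, a nuclear import factor, was lower without overlap on its brightest probe set, at 9.41, 9.28, 9.36 and 9.23 in WT against 9.19, 9.08 and 9.19 in KO, and differed by -0.16 (SE 0.08; limma, adjusted p = 0.484; exact permutation p = 0.0571). Its dimmer probe sets overlapped between the groups and gave 0.17 (SE 0.14) and -0.03 (SE 0.14). Over all genes, 2.68% did not overlap with KO higher and 3.23% with KO lower. Sem1, the smallest lid subunit, which the symbol rule misses, read 9.82, 9.85, 9.67 and 9.58 in WT against 9.84, 9.93 and 9.99 in KO, a difference of 0.21 (SE 0.09; limma, adjusted p = 0.437), with 0.18 on its other probe set.

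Of the 12 regulators of proteasome transcription, 11 were tested, 8 of them with a positive difference; the median was 0.07 and 0 had an unadjusted p under 0.05, beside 11.4% of all genes tested. The 3 of smallest p were the CCAAT-binding subunit Nfyc at 0.24 (SE 0.12), Foxo4 at -0.13 (SE 0.08) and Ngly1 at 0.13 (SE 0.09). Ngly1, which processes Nfe2l1, was higher in KO without overlap (exact permutation p = 0.0571), as were 2.68% of all genes tested. Nfe2l1 itself, not among those 3, stood at 0.06 (SE 0.12). Of 12 genes of ubiquitin, its activation and the unfolding complex, 5 were tested, with a median of 0.03 and again 0 at an unadjusted p under 0.05, against the same 11.4%. There Faf1 was at 0.20 (SE 0.10), Faf2 at 0.09 (SE 0.11) and Ufd1 at -0.07 (SE 0.11).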

How the data were processed

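The authors deposited 1 log2 value per probe set and array, computed by RMA (robust multi-array average) per the submitters' processing notes. No version, filter or batch step is named there. The table holds 45141 probe sets, 104 of them controls; the platform annotation gives 1 symbol for 28898, several for 551 and none for 15588. Each of 17097 genes was represented by its brightest probe set. After removal of the dimmest 25% of genes (by mean over all arrays), 12822 were tested with limma (version 3.58.1, R version 4.3.3; eBayes with a trend, scan batch as a covariate, Benjamini-Hochberg adjustment, threshold 0.05, 4 residual degrees of freedom), checked on simulated data. Group means and SDs are of the values themselves, differences and SEs from the fit. Single genes were also compared by two-sided exact permutation. The number of arrays limits the precision. RefSeq gave the current symbols; 68 of 68 member probe sets matched by gene number. Members and lists were chosen with earlier results of these data known. Values per array are given for members at an unadjusted p under 0.05, without overlap, or among the 3 of smallest p in a class (18 genes). They are also given for up to 3 genes of the list of assembly factors, associated proteins and shuttles, and for Psmb8. Genes named from the other pathway lists are given by differences and SEs. Other members with printed array values (Psmd4, Psmd14, Psmb5), Ipo9, the single readings of Psmb9 and the single cell type markers were chosen after their values were seen.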

Additional observations from a re-analysis of the deposited data

Results flagged for a closer look

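In 4 genes 1 WT array stood apart from the other 3 WT arrays, by a gap that took up most of the range of the group (Dixon's test; chance gives about 1 in 20 such groups, and 44 were looked at). Psma2 stood at 10.88 in WT replicate 1, Psma8, which was below the level filter, at 5.24 in WT replicate 4, Psmc3ip at 7.50 in WT replicate 3 and Psmd1 at 10.94 in WT replicate 2. In each of them that array was the highest of the WT arrays.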

How the results depend on the processing

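With 7 arrays the precision is limited, and the typical SE of a difference (median 0.09 over all genes) is of the size of most member differences. The count of genes at an adjusted p under 0.05 in limma, 0 as reported, was 1370 with array weights and 0 to 2 when 1 array was left out (2 without WT replicate 2 and 2 without WT replicate 4). Members higher in KO at an unadjusted p under 0.05, 1 as reported, numbered 2 with the actin covariate, 9 with array weights, 0 with the Gapdh covariate, 0 with the mean of probe sets, 0 with no batch term, 0 in scan batch 1, 7 in scan batch 2 and 1 to 7 leaving out 1 array (7 without KO replicate 1). Members lower, 1 as reported, numbered 5 with array weights, 2 with the Gapdh covariate, 2 with no batch term and without KO replicate 1, 2 after quantile normalization, 0 in scan batch 1, 3 in scan batch 2 and 1 to 4 leaving out 1 array (4 without WT replicate 2). The counts over all genes also changed with the setting, but not always in the same direction as these. An unadjusted p under 0.05 in either direction was held by 1462 genes as reported, 4072 with array weights and 3124 in scan batch 2. It was held by 2525 without KO replicate 1, 2401 without WT replicate 2, 1754 with the actin covariate and 1008 with the Gapdh covariate. Without WT replicate 4 the count was 1140, and with neither batch term nor KO replicate 1 it was 1066. In those fits and with the Gapdh covariate, members lower rose to 2 while the count over all genes fell. The actin covariate and the fit with neither batch term nor KO replicate 1 were chosen after seeing the data.

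The median difference of the activators was 0.069 with array weights, 0.019 with the Gapdh covariate, 0.0074 in scan batch 1 and 0.069 to 0.19 leaving out 1 array. That of the base ATPases was 0.085 with the actin covariate, -0.096 in scan batch 1, 0.10 in scan batch 2 and -0.070 to 0.10 leaving out 1 array. For the Psmd genes it was -0.020 with the mean of probe sets (all genes, -0.01) and -0.026 with no batch term and without KO replicate 1, and for the members as a whole 0.061 with the actin covariate and -0.037 in scan batch 1. The direction changed for 9 named genes. In scan batch 1 it did so for Psma3 (-0.027), Psma6 (-0.080), Psmb2 (0.024), Psmc4 (-0.033) and Psmg1 (-0.34), and in scan batch 2 for Psme3 (0.036). With the Gapdh covariate it did so for Psma6 (-0.035), Psmb2 (0.0050), Psmf1 (0.036) and Psmg1 (-0.19). On the probe set of largest variance it did so for Psmc4 (-0.042), Psmd11 (0.36), Psmf1 (0.30) and Psmg2 (-0.088), and with the mean of probe sets for Psmf1 (0.067). Psme3 stood at 0.041 with the actin covariate and 0.026 with no batch term and without KO replicate 1. Leaving out 1 array gave -0.079 to 0.0064 for Psmb2, -0.11 to 0.036 for Psme3 and -0.17 to 0.021 for Psmf1, positive without WT replicate 3, KO replicate 1 and WT replicate 3 in turn. Psmd8 stayed negative and Psmd6 positive under the 21 alternatives run, but not all of these were separate checks. Other level filters, a variance prior without a trend and the probe set of largest variance left both differences as reported. The mean of probe sets also left that of Psmd8, which had 1 probe set. Leaving out KO replicate 1 gave the same differences as scan batch 2 alone. The cause of these changes was not tested. No paired analysis was possible because the labels give the arrays no replicate numbers shared between the groups.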
